A study of Mus musculus with 23 samples.

Results

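The genes described here are the MHC class II presentation genes of the mouse, read in primary and metastatic melanomas. The set holds 10 of the 37620 genes in the count files, taken by symbol: H2-Aa, H2-Ab1, H2-Eb1, Cd74, H2-DMa, H2-DMb1, H2-DMb2, H2-Oa, H2-Ob and Ciita. All 10 had counts in all 23 libraries, and all 10 passed the filter on low counts in every comparison. The tumours come from a model of melanoma induced by ultraviolet light. The labels give 2 lung metastases, 7 libraries of lymph node metastases and 7 primary tumours with the genotype Nme1+/- / Nme2+/- (HPN), and 7 primary tumours with the genotype Nme1wt / Nme2wt (HP). The labels do not spell out HP, give no age, sex or strain, and name no HP metastasis, so genotype and site can only be compared where both groups exist. Nodes 3, 4 and 8 are labelled brachial, 6 and 7a cervical and 7b inguinal, and node 5 carries no site beyond its lymph label. Because nodes 7a and 7b have 1 number between them in the titles, their counts were added to form 1 sample, which leaves 6 node samples.

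MHC class II molecules are alpha and beta chain pairs that carry peptides from the endosome to the surface of antigen-presenting cells, mainly B cells, dendritic cells and macrophages, where T cells that express Cd4 read them. The invariant chain Cd74 fills the groove of a new pair until the H2-DM dimer exchanges its remnant for a peptide, and the H2-DO dimer, best known from B cells, holds H2-DM back. Ciita is the coactivator on which transcription of most other members depends. It binds no DNA itself and docks on RFX and NF-Y factors that occupy the X and Y boxes just upstream of class II genes. In melanoma, class II expression by the tumour cells themselves is known from human tumours, and interferon gamma is the classical inducer of Ciita outside the immune system.

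The promoter element with these boxes is shown first, for the members in which it was found. RefSeq promoter windows on GRCm38.p6 were matched by symbol for 7 of the 10 members, all on chromosome 17. The 250 bases before each start were searched on both strands for an X box written AACNNATG and a Y box written TGATTGG, letters that were chosen after these promoters had been read. Both motifs stood in the windows of H2-Eb1, H2-Ob, H2-DMb1 and H2-DMb2, and also in that of H2-Eb2, a class II beta chain gene outside the set. Each sequence below runs 5′ to 3′ on the strand of its gene, with the X box and then the Y box in capitals.
H2-Eb1: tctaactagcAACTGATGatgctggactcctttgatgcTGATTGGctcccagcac
H2-Ob: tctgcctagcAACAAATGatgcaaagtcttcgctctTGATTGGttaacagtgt
H2-DMb1: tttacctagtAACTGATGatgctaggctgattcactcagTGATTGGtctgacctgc
H2-DMb2: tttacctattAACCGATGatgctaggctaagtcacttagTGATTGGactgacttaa
H2-Eb2: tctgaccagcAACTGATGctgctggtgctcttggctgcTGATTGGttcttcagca

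All 5 lie on the plus strand, at chr17:34305768-34305822 for H2-Eb1, chr17:34238810-34238862 for H2-Ob, chr17:34153089-34153144 for H2-DMb1, chr17:34145118-34145173 for H2-DMb2 and chr17:34325535-34325589 for H2-Eb2. The boxes were 20 bases apart in H2-Eb1 and H2-Eb2, 18 in H2-Ob and 21 in both H2-DMb genes. H2-Aa and H2-Oa held the Y box without this spelling of the X box, and the 2 windows of H2-DMa held neither. Of 32851 promoter windows of the same length, 7.71% held the X box, 7.23% the Y box and 0.664% both, which is 218 windows. A match describes these letters in this window and is not a measured binding site.

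Counts assigned to genes came to 18870759 to 89481553 per library. Reads of low alignment quality were recorded in 8 libraries (node 7a, 7b and 8, HPN primary 7, and HP primaries 3, 6, 7 and 9) and in none of the other 15. They numbered only 196 (node 8) to 3709 (HP primary 7) per library, so they do not show that these libraries are poor. The name low-quality libraries below means these 8 and no more, and what set them apart is not given. The 7 melanocyte markers were present in every library, with summed levels of 23870 and 35440 CPM (gene counts relative to library size, scaled by TMM) in the lungs, 4428 to 43600 CPM in the nodes, 6086 to 61650 CPM in HPN primaries and 7787 to 53010 CPM in HP primaries. Node 5 was lowest of the nodes on this sum. The 8 alveolar markers summed to 102 CPM in lung 3, inside the 97.3 to 145 CPM of HPN primaries, against 7524 CPM in lung 4; Sftpc, a surfactant gene of alveolar cells, read 0.192 CPM in lung 3 and 4621 CPM in lung 4. Nme1, the mutated gene with more counts, averaged 10.5 ± 2.79 CPM in HPN primaries and 16.8 ± 7.93 CPM in HP primaries (SD, n = 7 each).

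The 10 genes together took a larger part of 6 of the 7 node libraries than of any other library, with node 4 as the exception. Their share of gene counts was 0.00512% (95% Wilson interval 0.00487 to 0.00537) in lung 3 and 0.0548% (0.0540 to 0.0557) in lung 4. It ran from 0.0724% in node 4 to 0.588% in node 7a, from 0.00495% to 0.0661% in HPN primaries and from 0.00194% to 0.0808% in HP primaries. Node 4 lay inside the range of the HP primaries, and the other 6 node libraries lay above all 14 primaries. These intervals cover counting error only. In bulk tissue, fewer cells of a type and less RNA per cell cannot be told apart.

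**Figure D1:**
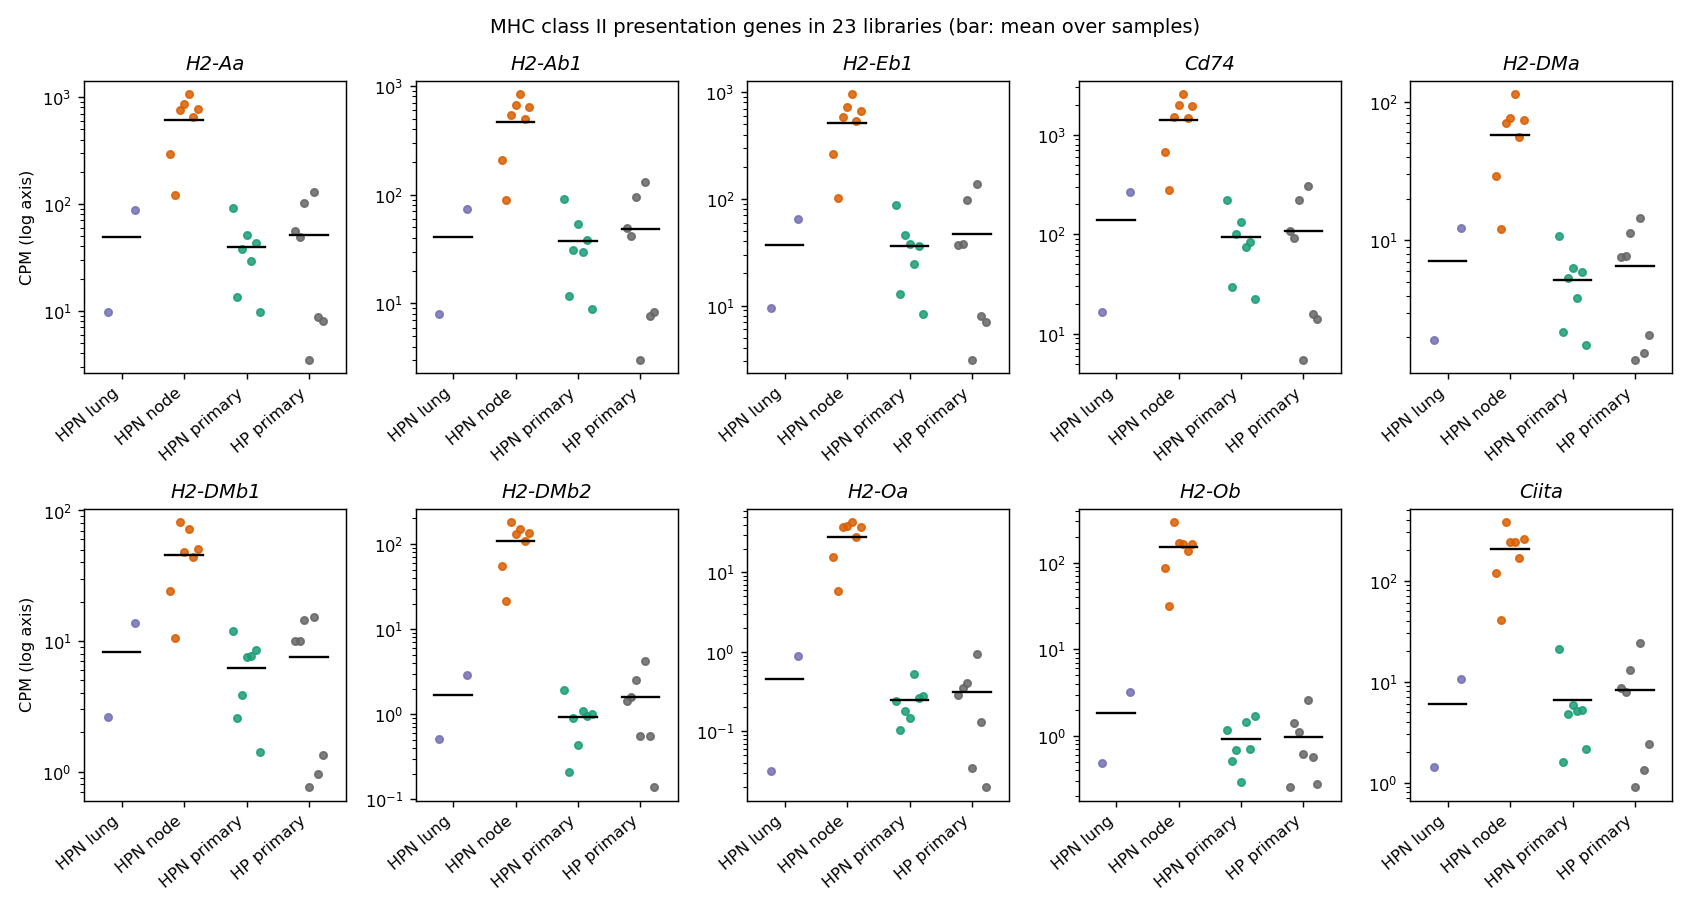
CPM of the 10 class II genes on log axes, 1 point per library and a bar at the mean over samples, in HPN lung metastases, HPN node metastases, HPN primaries and HP primaries. Node 4 is the lowest node in every panel of the 10 genes and lies below HP primary 6 in H2-Aa, H2-Ab1, H2-Eb1, Cd74, H2-DMa and H2-DMb1; the other nodes lie above all primaries and lungs. In H2-Oa, H2-Ob and H2-DMb2 all nodes lie more than an order of magnitude above the mean of the primaries.

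Divided by exonic length, the order of the levels began alike in all groups, with Cd74 first, then H2-Eb1, H2-Ab1 and H2-Aa. Exonic length counts every exon base annotated for a gene, here 1944 for H2-Eb1, 2568 for H2-Ab1 and 3798 for H2-Aa. The order of these 3 depends on that division. Without it H2-Aa had the highest mean CPM of the 3 in nodes, 609 against 514 for H2-Eb1 and 466 for H2-Ab1. In nodes Cd74 averaged 836 ± 448 CPM per kb (SD, n = 6), rank 29 of the 32897 genes with an annotated length, followed by H2-Eb1 at 265 ± 138, H2-Ab1 at 181 ± 98.4 and H2-Aa at 160 ± 83.9 CPM per kb. In HPN primaries Cd74 averaged 56.6 ± 40.4 CPM per kb (n = 7), rank 657, and H2-Eb1, H2-Ab1 and H2-Aa averaged 18.6 ± 13.5, 14.7 ± 10.8 and 10.4 ± 7.26 CPM per kb. The spreads of the last 3 overlapped in both groups, but these are spreads between samples and do not compare genes within a library. Per kb, H2-Eb1 was highest of the 3 and H2-Aa lowest in every node library. H2-Ab1 exceeded H2-Aa in every HPN primary, and H2-Eb1 exceeded H2-Ab1 in all but HPN primary 4 (19.5 against 21.0 CPM per kb). Below them the order parted. In nodes H2-DMb2 followed at 62.3 ± 33.9 CPM per kb, ahead of H2-Ob at 27.9 ± 16.5 and H2-DMb1 at 27.0 ± 14.9, with Ciita at 21.7 ± 12.3, H2-Oa at 20.0 ± 9.90 and H2-DMa at 16.7 ± 8.48, and these last 5 overlapped in spread. In HPN primaries H2-DMb1 followed at 3.71 ± 2.23 CPM per kb, then H2-DMa at 1.5 ± 0.882 and Ciita at 0.689 ± 0.693, while H2-DMb2 read 0.535 ± 0.317, H2-Oa 0.177 ± 0.0979 and H2-Ob 0.173 ± 0.0962 CPM per kb.

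RNA of the chain genes H2-Aa, H2-Ab1 and H2-Eb1 and of the chaperone gene Cd74 was higher in node metastases than in HPN primaries. H2-Ab1, the beta chain of the A molecule, had a lowest, median and highest value of 90.1, 589 and 663 CPM in the 6 node samples, against 8.82, 31.3 and 90.2 CPM in the 7 HPN primaries. Every node except node 4 exceeded every HPN primary, and node 4 lay level with HPN primary 1. The log2 difference was 3.58 ± 0.67 (SE, edgeR adjusted p = 0.00215). H2-Aa, the alpha chain of the same molecule, averaged 609 ± 319 CPM in nodes and 39.5 ± 27.6 CPM in HPN primaries (SD, n = 6 and 7), a log2 difference of 3.91 ± 0.66 (edgeR adjusted p = 0.00107). H2-Eb1, the beta chain of the E molecule, averaged 514 ± 267 CPM in nodes and 36.1 ± 26.2 CPM in HPN primaries, a log2 difference of 3.79 ± 0.64 (edgeR adjusted p = 0.00111). Cd74 read 279 CPM at its lowest, 1734 at the median and 2003 at its highest in nodes, against 22.2, 83.4 and 221 CPM in HPN primaries. The 2 groups did not overlap, and the log2 difference was 3.84 ± 0.71 (edgeR adjusted p = 0.00197). The alpha chain gene of the E molecule, which is silent in mice of the b haplotype and is annotated as H2-Ea-ps, had 0 counts in 18 of the 23 libraries and at most 4 counts in any one. The rise of H2-Eb1 RNA is therefore not a measure of E molecules at the surface.

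The peptide editors divided into 2 kinds of change. H2-DMa, the alpha chain of the editor, averaged 57.4 ± 29.3 CPM in nodes and 5.17 ± 3.04 CPM in HPN primaries, a log2 difference of 3.44 ± 0.57 (edgeR adjusted p = 0.00095). H2-DMb1, one of its alternative beta chains, read 10.6, 49.4 and 81.6 CPM (lowest, median, highest) in nodes, against 1.43, 7.51 and 11.9 CPM in HPN primaries; node 4 alone fell among the primaries, and the log2 difference was 2.84 ± 0.57 (edgeR adjusted p = 0.00357). The other beta chain, H2-DMb2, read 21.2, 131 and 182 CPM in nodes, against 0.207, 0.948 and 1.95 CPM in HPN primaries. Its lowest node was over 10 times its highest HPN primary, and the log2 difference was 6.84 ± 0.65 (edgeR adjusted p = 4.2e-05).

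The 2 chains of the H2-DO inhibitor rose with H2-DMb2 as the members with the widest differences. H2-Oa read 5.77, 36.2 and 38.0 CPM (lowest, median, highest) in nodes, against 0.104, 0.240 and 0.525 CPM in HPN primaries, where it rests on 3 to 27 counts per library. Its log2 difference was 6.76 ± 0.67 (edgeR adjusted p = 4.7e-05). H2-Ob read 31.8, 158 and 295 CPM in nodes, against 0.291, 0.711 and 1.71 CPM in HPN primaries, where it rests on 10 to 74 counts. Its log2 difference was 7.31 ± 0.64 (edgeR adjusted p = 3.4e-05), and no node came near any primary. Ciita lay between the 2 kinds. It read 40.6, 222 and 381 CPM in nodes, against 1.62, 5.09 and 21.1 CPM in HPN primaries, a log2 difference of 4.94 ± 0.72 (edgeR adjusted p = 0.000446).

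In all, 10 of the 10 genes rose in nodes at an adjusted p under 0.05, where 12.7% of the 19152 genes tested rose and 9.81% fell. Their median log2 difference was 3.87, where that of all genes tested was -0.08. For 8 of the 10 the node samples did not overlap the HPN primaries, which held for 5.40% of all genes tested in this direction; H2-Ab1 and H2-DMb1 were the exceptions. The 10 calls held each time 1 sample was left out. With the title number as a block, 6 of the 10 passed, where 4.82% of all genes rose. H2-Ob (log2 difference 7.21, edgeR adjusted p = 0.00893), H2-DMb2 (6.68, 0.00893), H2-Oa (6.54, 0.0104), Ciita (5.31, 0.0154), H2-Aa (4.05, 0.0460) and H2-DMa (3.47, 0.0498) did. H2-Eb1 (3.92, 0.0526), H2-Ab1 (3.73, 0.0550), H2-DMb1 (2.95, 0.0572) and Cd74 (3.98, 0.0620) missed the threshold with differences of the same size.

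Within the 5 title numbers that have both a node and a primary, each of the 10 genes was higher in the node of all 5. H2-Ab1 differed least at number 4, with 90.1 CPM in the node against 54.0 CPM in the primary, and most at number 7, with 656 CPM in the nodes against 8.82 CPM in the primary. With 0.5 CPM added to each value, the log2 difference of H2-Ab1 ran from 0.73 to 6.14 over the 5 numbers, and that of Cd74 from 1.05 to 6.46. H2-Ob kept to a narrower and higher range, from 5.35 to 7.25. Its paired primaries read 0.291 to 1.71 CPM, so the added 0.5 CPM lowers these differences, and they cannot be set beside the edgeR value.

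**Figure D2:**
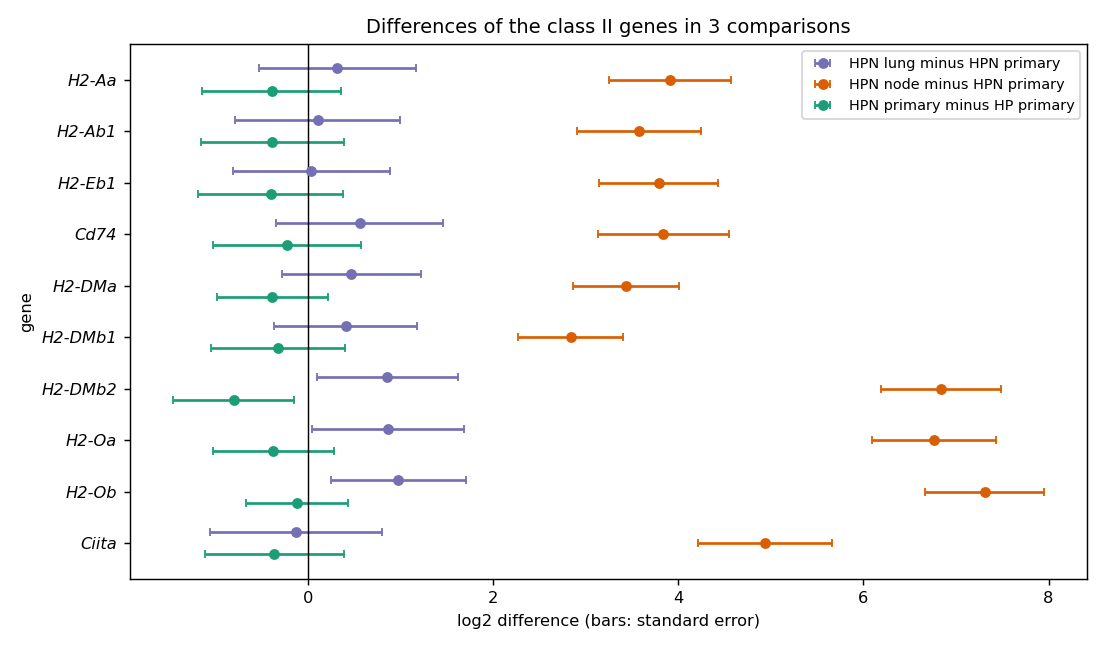
Log2 differences of the 10 class II genes (horizontal axis, bars are standard errors) for HPN lung minus HPN primary, HPN node minus HPN primary and HPN primary minus HP primary. The node differences run from 2.84 for H2-DMb1 to 7.31 for H2-Ob, while those of the other 2 comparisons lie between -0.80 and 0.98.

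Ratios between 2 genes of the same library, with 0.5 CPM added to each, show that the members did not move by equal amounts. The 5 ratios were compared in 4 comparisons with exact two-sided permutation tests, adjusted over the 20. The log2 ratio of H2-Ob to H2-DMa averaged 1.36 ± 0.42 in nodes and -1.88 ± 1.07 in HPN primaries (SD, n = 6 and 7), a difference of 3.24 (exact permutation p = 0.00117, adjusted p = 0.00583). All 6 nodes lay above all 7 primaries. The log2 ratio of H2-DMb2 to H2-DMb1 averaged 1.22 ± 0.17 in nodes and -2.08 ± 0.88 in HPN primaries, a difference of 3.30 with the same exact p and adjusted p. H2-DMb2 thus had the higher CPM of the 2 beta chains in every node and the lower in every primary. H2-Ab1 to Ciita averaged 1.15 ± 0.44 in nodes and 2.47 ± 0.42 in HPN primaries, so that Ciita differed by 1.32 more than H2-Ab1 on the log2 scale, again with no overlap and an exact permutation adjusted p of 0.00583.

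The ratios among the most abundant members shifted by little. H2-Aa to H2-Ab1, the 2 chains of one molecule, averaged 0.41 ± 0.09 in nodes and 0.10 ± 0.13 in HPN primaries, a log2 difference of 0.31 without overlap (exact permutation adjusted p = 0.00583). Cd74 to H2-Ab1 averaged 1.60 ± 0.06 in nodes and 1.32 ± 0.17 in HPN primaries, a log2 difference of 0.28 (exact permutation adjusted p = 0.0233), with HPN primary 3 above most nodes. Within the 5 title numbers with both sites, the 4 ratios that were higher in nodes were so in 5 of 5 pairs and H2-Ab1 to Ciita was lower in 5 of 5, where an exact sign-flip test cannot go below p = 0.0625 (adjusted over 10 tests 0.104). The Cd74 to H2-Ab1 difference missed the threshold without node 3 (0.26, adjusted p = 0.0505) and without the libraries that hold reads of low alignment quality (0.27, adjusted p = 0.152, 4 nodes and 6 primaries).

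**Figure D3:**
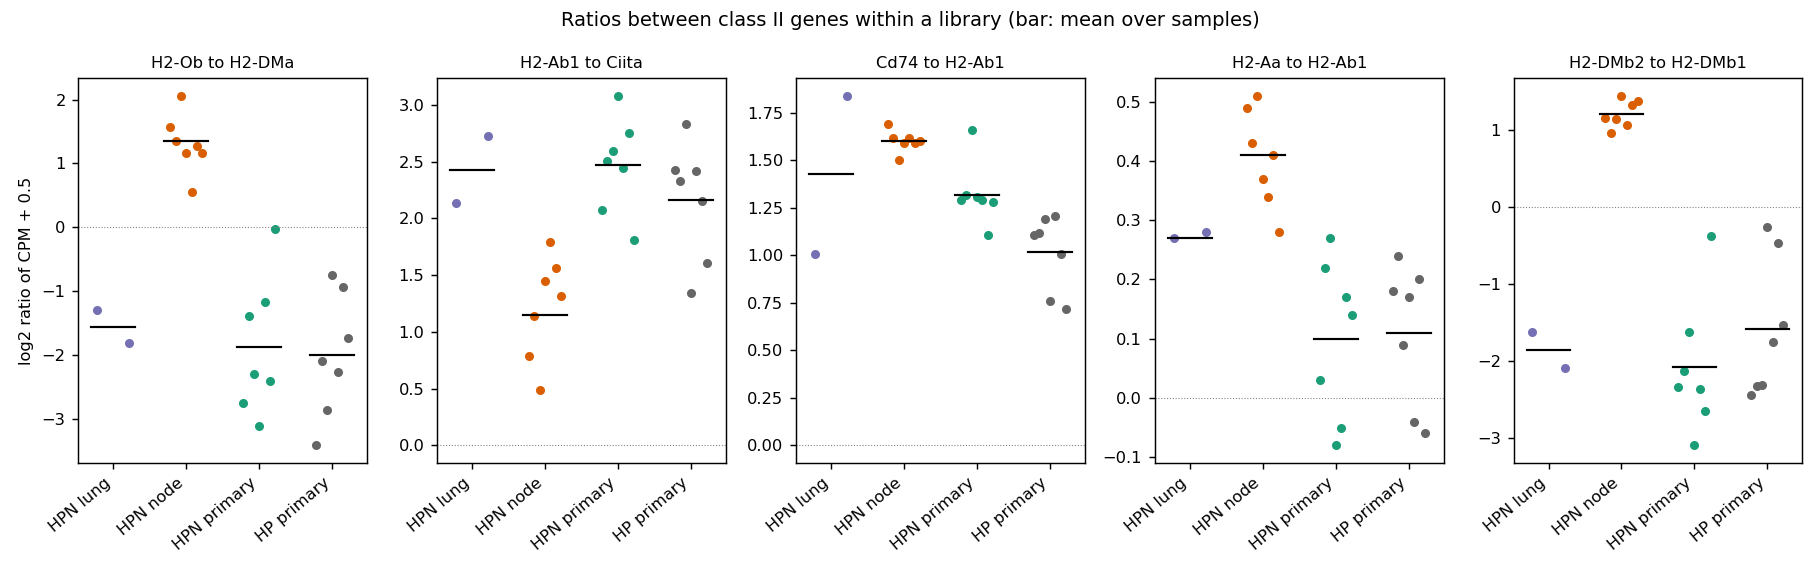
Log2 ratios between class II genes within each library (vertical axis, CPM + 0.5 in each term), 1 point per library and a bar at the mean over samples, in HPN lung, HPN node, HPN primary and HP primary. The node points stand apart from all primaries in H2-Ob to H2-DMa and in H2-DMb2 to H2-DMb1, and Cd74 to H2-Ab1 averages 1.32 in HPN primaries and 1.02 in HP primaries.

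Markers of several immune cell types moved with the class II genes in nodes, and their part in the class II result was not tested. All 10 B cell markers rose (median log2 difference 7.94), among them Cd79b (7.57 ± 0.68, edgeR adjusted p = 3.7e-05) and Cd79a (7.94 ± 0.79, 4.7e-05), the signalling chains of the B cell receptor. The 10 summed to 264 CPM in node 4, the lowest node, and 2602 CPM in node 5, the highest, against 5.45 to 22.6 CPM in HPN primaries, and none was at 0 throughout a group. All 10 class II genes were lowest in node 4 as well. H2-Ob, H2-DMb1, H2-DMb2 and Ciita were highest in node 5, and the others in node 7a. All 8 T cell markers rose (median 4.76), their sum running from 47.9 CPM in node 4 to 377 CPM in node 5, against 0.897 to 26.8 CPM in HPN primaries. Of 10 dendritic cell markers 6 rose, among them Ccr7, the receptor that leads cells to nodes (5.05 ± 0.63, edgeR adjusted p = 0.000161), and Flt3, the receptor their precursors need (3.71 ± 0.60, 0.000781); the 10 summed to 187 to 495 CPM in nodes, against 53.7 to 262 CPM in HPN primaries. Of 9 macrophage markers 1 rose, C1qa (1.67 ± 0.50, edgeR adjusted p = 0.0268), with sums of 415 to 1589 CPM in nodes, against 73.7 to 785 CPM in HPN primaries. Of 5 stromal and vascular node markers 4 rose, and Cxcl13, the chemokine of B cell follicles, averaged 100 ± 80.9 CPM in nodes and 0.675 ± 0.613 CPM in HPN primaries. All 8 keratinocyte markers fell, and 0 of 7 melanocyte markers passed the test.

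The partners of class II presentation rose with it. All 5 costimulators did (median 3.15), led by Cd40, through which helper T cells license presenting cells (26.4 ± 21.2 CPM in nodes and 1.55 ± 0.874 CPM in HPN primaries; log2 difference 4.06 ± 0.63), and Icosl, the ligand of Icos (3.69 ± 0.66). All 6 genes of the T cells that read class II rose (median 4.06), among them Cd4, the coreceptor for class II (187 ± 100 CPM in nodes and 5.73 ± 3.02 CPM in HPN primaries; 4.99 ± 0.50), and Cd28, the receptor of Cd80 and Cd86 (3.36 ± 0.49). H2-Eb2, the beta chain gene beside H2-Eb1, averaged 37.8 ± 19.8 CPM in nodes and 0.275 ± 0.119 CPM in HPN primaries, a log2 difference of 7.07 ± 0.57 (edgeR adjusted p = 2.6e-05). Its difference was of the size of those of H2-Ob and H2-DMb2.

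The general transcription factors of the promoter element moved far less than Ciita. Of 7 tested, Rfx5, a DNA-binding subunit of RFX, rose by 0.99 ± 0.22 (edgeR adjusted p = 0.00609) and Creb1, which binds beside it, by 0.63 ± 0.15 (0.0077) on the log2 scale. Rfxap, another RFX subunit, differed by -0.47 ± 0.19 (adjusted p = 0.0843) and Nfyb by 0.40 ± 0.16 (0.0857), and the median of the 7 was 0.05. On the interferon gamma route to Ciita the kinases Jak1 (1.40 ± 0.23) and Jak2 (0.56 ± 0.15), the receptor chain Ifngr1 (1.28 ± 0.26) and the factor Irf1 (1.10 ± 0.36, edgeR adjusted p = 0.0400) rose by smaller steps than Ciita. Ifng itself averaged 0.180 ± 0.132 CPM in nodes and 0.0810 ± 0.0959 CPM in HPN primaries and did not pass the filter on low counts. Of 9 processing and turnover genes, March1, the ligase that removes class II from the surface (3.15 ± 0.54, edgeR adjusted p = 0.00119), and Ifi30, a lysosomal thiol reductase (1.03 ± 0.24, 0.0086), rose, and the protease Ctsl fell by 0.91 ± 0.29 (0.0397).

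In lung metastases none of the 10 genes differed from HPN primaries by edgeR's test (0 of 10, where 0.266% of all genes tested were called), and unadjusted p under 0.05 was met by none; DESeq2 and limma voom also called none. The 2 lungs lay far apart. Cd74 read 16.8 CPM in lung 3 and 264 CPM in lung 4, against 22.2 to 221 CPM in HPN primaries. Lung 3 was thus below and lung 4 above every HPN primary. H2-Aa read 9.82 CPM in lung 3 and 88.6 CPM in lung 4, against 9.74 to 91.9 CPM in HPN primaries, and Ciita 1.44 CPM and 10.6 CPM, against 1.62 to 21.1 CPM. H2-Ob read 0.480 CPM in lung 3 and 3.18 CPM in lung 4, against 0.291 to 1.71 CPM in HPN primaries.

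The fitted log2 differences of lung minus HPN primary ran from -0.13 ± 0.93 for Ciita to 0.98 ± 0.73 for H2-Ob (SE), with adjusted p from 0.864 upward. Every one of the 10 had a standard error of 0.73 or more. Lung 4, the lung with the higher class II level, is also the one with 7524 CPM of alveolar markers, and its B cell and macrophage markers summed to 26.0 and 414 CPM, against 5.12 and 288 CPM in lung 3. The part of lung tissue in the class II level of lung 4 was not tested. Without lung 4, all 10 differences turned negative, from -2.86 for H2-Oa to -0.86 for H2-DMb2, and without lung 3 all 10 were positive, up to 1.82.

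Set against nodes, 4 of the 10 genes were lower in lungs, where 3.09% of all genes tested were lower. H2-Ob averaged 1.83 ± 1.91 CPM in lungs and 150 ± 88.9 CPM in nodes (SD, n = 2 and 6), a log2 difference of -6.33 ± 1.09 (edgeR adjusted p = 0.0167). H2-DMb2 averaged 1.69 ± 1.67 CPM in lungs and 109 ± 59.2 CPM in nodes (-5.98 ± 1.11, 0.0182), H2-Oa 0.460 ± 0.605 CPM and 28.2 ± 13.9 CPM (-5.89 ± 1.15, 0.0215), and Ciita 6.03 ± 6.49 CPM and 207 ± 118 CPM (-5.07 ± 1.28, 0.0391). The other 6 had log2 differences of -3.75 to -2.43 and adjusted p of 0.0638 to 0.139. The groups did not overlap for 8 of the 10, which held for 14.2% of all genes tested; H2-DMa and H2-DMb1 of lung 4 lay above node 4. These calls are unsteady. With the title number as a block 0 of 10 passed, with adjusted p of 0.215 (H2-Ob and H2-DMb2), 0.239 (H2-Oa) and 0.244 (Ciita). Ciita also missed the threshold with all 4 groups in 1 fit (adjusted p = 0.0538) and with low-quality reads as a term (0.0618), which left 3. The count was 0 without lung 4, 2 without lung 3, 8 without node 4 and 0 without the libraries that hold low-quality reads.

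The genotype comparison asks whether heterozygosity for Nme1 and Nme2 goes with a different class II level in primary tumours. None of the 10 genes differed between HPN and HP primaries by edgeR's test, where 0.0% of the 16578 genes tested passed; unadjusted p under 0.05 was met by 477 genes and by none of the 10, and DESeq2 and limma voom called 0 genes (851 and 2306 at an unadjusted p under 0.05). Cd74 read 22.2, 83.4 and 221 CPM (lowest, median, highest) in HPN primaries, against 5.49, 91.2 and 306 CPM in HP primaries. H2-Ab1 read 8.82, 31.3 and 90.2 CPM in HPN primaries, against 3.04, 41.6 and 132 CPM in HP primaries, and Ciita 1.62, 5.09 and 21.1 CPM, against 0.897, 7.90 and 24.2 CPM. The groups overlapped for every member. The log2 differences ran from -0.80 ± 0.65 for H2-DMb2 to -0.12 ± 0.55 for H2-Ob (SE), and all 10 standard errors were between 0.55 and 0.80. These errors are not a limit of detection. The difference of H2-DMb2 exceeded its error and was not called (edgeR adjusted p = 0.951), so larger differences than these errors could also be missed here. Of the marker lists, 0 genes were called; the 8 keratinocyte markers summed to 2.08 to 5896 CPM in HPN primaries, against 7.75 to 14180 CPM in HP primaries. With the title number as a block the differences of H2-Aa, H2-Ab1, H2-Eb1 and Cd74 turned to 0.03, 0.08, 0.12 and 0.33, and that of Ciita to 0.00. The labels do not link HPN and HP tumours of the same number, so this block has no stated basis.

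One ratio differed between the genotypes when the title numbers were not paired. Cd74 to H2-Ab1 averaged 1.32 ± 0.17 on the log2 scale in HPN primaries and 1.02 ± 0.20 in HP primaries (SD, n = 7 each), a difference of 0.30 (exact permutation p = 0.00466, adjusted over 20 tests 0.0187). It ran from 1.11 to 1.66 in HPN primaries and from 0.72 to 1.21 in HP primaries, so the groups overlapped. Leaving out any 1 library gave differences of 0.25 to 0.34, all past the threshold. Paired by title number the call was lost, though the labels do not link HPN and HP tumours of the same number. The ratio was higher in the HPN primary of 5 of 6 pairs, by 0.26 on average (exact sign-flip permutation p = 0.0625, adjusted over 10 tests 0.104). Among the 9 primaries without low-quality reads (6 HPN and 3 HP) the difference was 0.31 with an exact permutation p of 0.0714, adjusted 0.204. The other 5 primaries hold 1 HPN and 4 HP tumours, too few for a value of their own. The remaining 4 ratios did not differ between genotypes, with adjusted p of 0.405 to 0.887.

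The spread within a genotype was wider than any difference between genotypes. The highest HPN primary had 10.2 times the H2-Ab1 of the lowest, and the highest HP primary 43.5 times; for Cd74 the factors were 9.99 and 55.8. The same tumours were high or low for nearly all members. Krt14, a keratin of basal keratinocytes, fell into 2 clusters, with 6 primaries (3 HPN, 3 HP) at 0.389 to 25.4 CPM and 8 (4 HPN, 4 HP) at 291 to 3001 CPM. H2-Ab1 read 3.04 to 29.9 CPM in the first cluster and 31.3 to 132 CPM in the second. Relations between genes are therefore given within the clusters, a split made after the data were seen.

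Over the 8 primaries high in Krt14, members followed Ciita. H2-DMa correlated with Ciita at r = 0.966 (exact permutation p = 0.000223, adjusted over 9 members 0.00201) and rho = 0.952 (exact p = 0.00114, adjusted 0.00342), and r was 0.987 without the 2 samples farthest from the median. H2-Ab1 gave r = 0.931 (exact permutation p = 0.00146, adjusted 0.00439) and rho = 0.905 (exact p = 0.00456, adjusted 0.0103), with 0.868 without the 2. H2-Aa, H2-Eb1, H2-DMb1, H2-DMb2 and Cd74 had r of 0.812 to 0.950 (exact permutation, adjusted p of 0.00391 to 0.0121) and rho of 0.643 to 0.952, the rho of H2-Eb1 missing the threshold (adjusted p = 0.108). H2-Ob followed Ciita least, with r = 0.684 (exact permutation p = 0.0647, the same after adjustment) and rho = 0.571 (exact p = 0.151), and 0.301 without the 2 farthest samples. H2-Oa gave r = 0.696 (exact permutation adjusted p = 0.0391) and rho = 0.643 (adjusted p = 0.108). In the 6 of these libraries without low-quality reads, r still passed for H2-DMa (0.949), H2-Aa (0.927) and H2-Ab1 (0.904), each with an exact permutation adjusted p of 0.0458. The calls of Cd74 (0.875, exact permutation adjusted p = 0.0563), H2-Eb1 (0.825, 0.0804), H2-DMb2 (0.795, 0.0804), H2-DMb1 (0.775, 0.0804) and H2-Oa (0.489, 0.338) were lost there, H2-Ob gave 0.575 (0.258), and no rho passed (lowest adjusted p = 0.06). Without the 2 farthest of these 6, r of H2-Eb1 was -0.506. Over the 6 primaries low in Krt14, no member passed after adjustment, and H2-Ab1 gave r = 0.912 (exact permutation adjusted p = 0.0729) with all 6 and -0.036 without the 2 samples farthest from the median of Ciita, one of them HPN primary 5, so this relation rests on those samples.

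**Figure D4:**
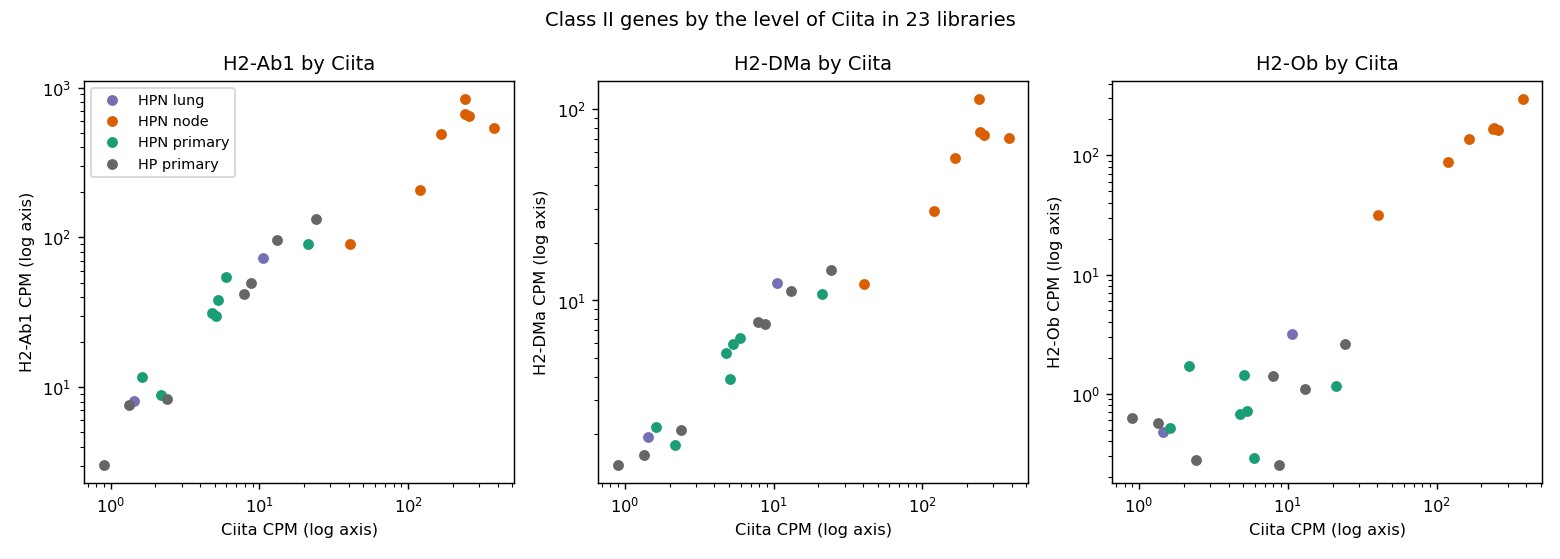
CPM of H2-Ab1, H2-DMa and H2-Ob (vertical log axes) by the CPM of Ciita (horizontal log axis) in HPN lung, HPN node, HPN primary and HP primary libraries. H2-Ab1 and H2-DMa climb with Ciita across primaries and lungs, while H2-Ob stays between 0.253 and 3.18 CPM there and lies at 31.8 CPM or more in nodes.

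H2-Ab1 was also set against 1 marker of each of 7 cell types over the same 8 primaries, with p adjusted over the 7. It rose with Cd3e of T cells (r = 0.934, exact permutation adjusted p = 0.0116; rho = 0.810, adjusted 0.0508) and Cd207 of Langerhans cells (r = 0.912, exact adjusted p = 0.0116; rho = 0.857, adjusted 0.0508). It was lower where Pmel, a melanosome gene, was higher (r = -0.902, exact adjusted p = 0.0116; rho = -0.833, adjusted 0.0508). These 3 values of r were 0.849, 0.812 and -0.879 without the 2 farthest samples. Among the 8, the 6 libraries without low-quality reads gave r of 0.920, 0.916 and -0.925 (exact permutation adjusted p = 0.0389 each). No rho passed there (lowest adjusted p = 0.117), and without the 2 farthest of those 6 the values of r were 0.418, 0.451 and -0.650. Over all 8, Flt3 (r = 0.732, exact adjusted p = 0.0734), Krt14 (0.502), C1qa (0.383) and the B cell gene Cd79a (0.322) did not pass. Over the 6 primaries low in Krt14 none of the 7 passed (lowest exact permutation adjusted p = 0.185). The sign for Pmel (r = 0.631, rho = 0.771) was opposite to that above. Cd207 (r = -0.447, rho = -0.338) had 0 or 2 counts in each of those primaries, so its sign there cannot be read. These relations are therefore described for the 8 alone. Over all 14 primaries, and as a description that spans both clusters, the 8 genes most like H2-Ab1 among 11338 candidates were Egfr, Nod1, B4galnt1, H2-K1, Maf, Ccdc80, Asap3 and Plcg2, with r from 0.977 for Egfr to 0.953 for Plcg2. H2-K1, a class I heavy chain gene (r = 0.960), read 48.7 to 702 CPM. Between members, r over the 14 ran from 0.358 for the least alike pair to 0.997 for H2-Aa with H2-Ab1.

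Some of these counts could be shared between genes. H2-DMb1 and H2-DMb2 are near copies: 25.2% of the stretches of 50 bases in the H2-DMb2 transcript and 26.6% of those in H2-DMb1 occur unchanged in the other, and 12.9% and 13.7% of stretches of 100 bases do, so reads from those parts cannot be placed by sequence alone. On the opposite strand BC051537 overlaps 22.8% of H2-Oa's exonic bases, Brd2 10.4% of H2-DMa's and Dexi 3.45% of Ciita's, and reads of such partners can be told apart only if the counting used strand, which the sources used here do not say.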

How the data were processed

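Directional libraries were built on total RNA, per the labels' protocols. The submitters' processing notes name bcl2fastq 1.8.4, STAR 2.5.3a and mm9; which counter, strand setting and annotation were used is not given in the sources used here. The deposited values are raw read counts per Ensembl gene, 1 file per library. Entries that name no gene did not enter any test or library size. Genes took 25.0 to 50.8% of all entries, reads outside genes 13.6 to 49.3% and unaligned reads 10.3 to 36.7%. Symbols, exonic lengths and overlaps came from GENCODE vM21 (GRCm38), which matched 87.45% of the identifiers; promoter sequences came from RefSeq (GRCm38.p6).

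The 14 primaries were fitted together, and the HPN primaries, nodes and lungs (15 samples) together, with edgeR 4.0.16 in R 4.3.3: filterByExpr, TMM, robust quasi-likelihood test and Benjamini-Hochberg adjustment over all genes tested, threshold 0.05, tested on simulated data. Ratios and correlations used log2(CPM + 0.5) and permutation tests: exact for all ratios and for correlations over fewer than 10 samples. Ratios were also paired by title number with an exact sign flip, chosen after the data were seen. The fixed design had correlations over all 14 primaries; they are given within clusters because Krt14 split the primaries. Alternatives were DESeq2 1.42.0, its size factors, limma 3.58.1 voom, other filters, all groups in 1 fit, low-quality reads as a term or those libraries left out, the title number as a block, nodes 7a and 7b apart, and each sample left out.

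Whether each primary is from its own animal is not stated in the labels; p-values therefore reflect the spread among these samples, which may be technical. Title numbers of HPN tumours were read as animals. Deviations from the group mean correlated at -0.241 to 0.435 for same-numbered samples over the HPN sites, and at -0.435 to 0.431 for different numbers. With only 2 lungs, their deviations mirror each other, so these ranges cannot show whether a shared number matters. Nodes with HPN primaries alone gave -0.083 to 0.265 for the same number and -0.335 to 0.343 for different numbers. Between the genotypes the 6 same-numbered pairs gave 0.104 to 0.661, inside the -0.778 to 0.852 of pairs with different numbers. Tumours of different genotype cannot share an animal, and the labels do not say what a number shared between the genotypes means. The members and lists were chosen with earlier results of these data known. Named genes were all 10 members, up to 4 genes per list with the smallest p, and the 8 genes most like H2-Ab1; Irf1 was added after its values were seen. A listed gene, and the counts over its list, are not reported here.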

Additional observations from a re-analysis of the deposited data

Results flagged for a closer look

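The metastatic sites differed in their effect against HPN primaries for 4 genes, by the direct test of lung against node in edgeR (adjusted p under 0.05). The log2 difference of lung minus node was -5.89 for H2-Oa, -6.33 for H2-Ob, -5.98 for H2-DMb2 and -5.07 for Ciita, on 2 lungs and 6 nodes. The same 4 had the widest node differences from HPN primaries. Ciita lost its call with all 4 groups in 1 fit (adjusted p = 0.0538) and with low-quality reads as a term (0.0618). The 4 passed in neither the fit with the title number as a block nor the one without the libraries that hold low-quality reads, and B cell marker sums (5.12 and 26.0 CPM in lungs, against 264 to 2602 CPM in nodes) moved with them; their part was not tested. No sample stood apart from its group by Dixon's test in the 30 groups of 4 to 10 samples examined, where chance gives about 1 in 20.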

How the results depend on the processing

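Against HPN primaries the 10 node rises held under each alternative except the replicate block, which left 6. All genes called there came to 4313, to 6519 with limma voom, 1542 without the low-quality libraries, 1274 with the replicate block and 2681 in numbers 3 to 7 without it, and to 2731 to 5333 with 1 sample left out (2731 without node 5). For HPN against HP primaries no member was called under any alternative. Signs turned under the replicate block for H2-Aa (0.03), H2-Ab1 (0.08), H2-Eb1 (0.12), Cd74 (0.33) and Ciita (0.00), and for H2-Ob with low-quality reads as a term (0.27) or without those libraries (0.28). With 1 sample left out, H2-Aa ran from -0.80 to 0.03, H2-Ab1 from -0.80 to 0.11, H2-Eb1 from -0.83 to 0.16, H2-Ob from -0.32 to 0.35, Cd74 from -0.62 to 0.30 and Ciita from -1.09 to 0.19.

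Lung against HPN primaries called 51 genes, but 352 with DESeq2, 0 with voom, 138 with no filter, 12 over 1 CPM, 89 with all groups in 1 fit, 1 without the low-quality libraries, 0 with the replicate block and 0 in numbers 3 to 7, and 0 (without lung 4) to 393 (without lung 3) with 1 sample left out, with 7 to 16 without any 1 of HPN primaries 2 to 6, 26 without HPN primary 7 and 30 without node 8. Signs turned with voom for H2-Aa (-0.27), H2-Ab1 (-0.45), H2-Eb1 (-0.35), H2-Oa (-0.25), H2-DMa (-0.01) and Cd74 (-0.30), without the low-quality libraries for H2-Ab1 (-0.07) and H2-Eb1 (-0.14), and with the replicate block or in numbers 3 to 7 for Ciita (0.42 each). Left-out samples gave -2.01 to 1.17 for H2-Aa, -2.23 to 0.96 for H2-Ab1, -1.94 to 0.85 for H2-Eb1, -2.86 to 1.82 for H2-Oa, -0.96 to 1.78 for H2-Ob, -1.43 to 1.27 for H2-DMa, -1.25 to 1.17 for H2-DMb1, -0.86 to 1.64 for H2-DMb2, -2.50 to 1.48 for Cd74 and -2.19 to 0.70 for Ciita. Where 1 lung is left out, the other is assumed to vary like the other groups.

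Lung against node called 4 members lower, 10 with DESeq2, 8 with voom, 3 with all groups in 1 fit or with low-quality reads as a term, 0 without the low-quality libraries, 0 with the replicate block and 0 to 8 with 1 sample left out; all genes called were 966, and 2467 with DESeq2, 263 with low-quality reads as a term, 0 without those libraries, 0 with the replicate block, 526 in numbers 3 to 7 and 0 (without lung 4) to 2017 (without node 4) with 1 sample left out, with 438 without lung 3, 138 to 397 without any 1 of nodes 5 to 8, and 523 and 614 without HPN primaries 3 and 6. Of the ratios, H2-Ab1 to Ciita for lung against HPN primaries was 0.01 at a pseudocount of 0.1 and -0.32 to 0.26 with 1 sample left out. Without the low-quality libraries Cd74 to H2-Ab1 missed the threshold for HPN against HP primaries (0.31) and for node against HPN primaries (0.27). Left-out samples gave 0.24 to 0.34 for the node value, -0.31 to 0.52 for lung against HPN primaries and -0.59 to 0.24 for lung against node; -0.18 to 0.34 for H2-Ob to H2-DMa and -0.04 to 0.02 for H2-Aa to H2-Ab1 between genotypes; and -0.01 to 0.51 for H2-DMb2 to H2-DMb1 in lung against HPN primaries. With the replicate block (exact sign flip, 5 pairs, smallest p 0.0625) the node ratios were 3.21 for H2-Ob to H2-DMa, -1.42 for H2-Ab1 to Ciita, 0.27 for Cd74 to H2-Ab1, 0.34 for H2-Aa to H2-Ab1 and 3.20 for H2-DMb2 to H2-DMb1, and Cd74 to H2-Ab1 between genotypes was 0.26 over 6 pairs; none passed. With a pseudocount of 2, r over the 8 primaries passed for H2-Ob with Ciita (0.717) and for Flt3 with H2-Ab1 (0.762). The cause of these changes was not tested. The exact tests of ratios in lungs cannot go below p = 0.0556 against HPN primaries and 0.0714 against nodes.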
